A study of Pinctada fucata with 3 samples.

Results

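The genes described here are those of the pearl oyster mantle whose transcript level in the IκB dsRNA library stood at least 2-fold apart from both the Rel dsRNA and the GFP dsRNA library, while Rel and GFP dsRNA lay close together. Members were chosen by their FPKM (fragments per kilobase of transcript and per 1000000 mapped fragments) in these 3 libraries. A gene was taken if its 3 values averaged 10 FPKM or more and if, after 1 was added to every value, IκB dsRNA was at least 2-fold above both others or at least 2-fold below both, with Rel and GFP dsRNA within 1.5-fold of each other. Of 33072 genes in the deposited table, 6430 reached the mean of 10 FPKM, and 122 of these met the rule. The members comprised 42 genes that were higher with IκB dsRNA (0.653% of the 6430) and 80 that were lower (1.24%). The levels and ratios below are therefore descriptions without a test.

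The tissue was the mantle of adult Pinctada fucata, which secretes the shell. The IκB group received dsRNA labelled poI-kappaB, the Rel group dsRNA labelled Pf-Rel, and the control group dsRNA against green fluorescent protein (GFP), which oysters lack. In all 3 groups, 30 μg of dsRNA was given into the adductor muscle and mantle was taken from 5 oysters on day 7, so the control animals also carried an injection and a dsRNA. Each group is 1 library, which implies that the 5 pieces were pooled, although the labels do not say so, and the spread between oysters cannot be seen.

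In animals from insects to mammals, IκB proteins hold transcription factors of the Rel family in the cytoplasm. Signals from Toll receptors and similar sensors lead to the breakdown of IκB, and the freed Rel protein enters the nucleus and switches on immune and stress genes. Losing the inhibitor and losing the factor therefore have opposite known effects on Rel targets. The genes below differed in the library of the first treatment and stayed within the 1.5-fold window in that of the second. The deposited table does not pair its identifiers with gene names, so no role is given to any gene, the mantle's own markers were not checked, and the Rel and IκB transcripts, and with them the knockdowns, were not analysed here. The genes that ranked first and second in each direction are named by identifier, and the others are described by their level or their rank. Rank follows the smaller of a gene's log2 ratios of IκB dsRNA to Rel dsRNA and to GFP dsRNA. In bulk mantle tissue, fewer cells of a type and less RNA per cell cannot be told apart.

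Low values were assumed to move in steps of single reads. On that basis the relative depth was 1.17 for IκB dsRNA and 1.18 for Rel dsRNA, with GFP dsRNA as 1. Read numbers are unknown, and these estimates have no stated precision. Among the 6430 genes the median log2 ratio was 0.01 for IκB against Rel dsRNA and -0.14 for IκB against GFP dsRNA. For Rel against GFP dsRNA it was -0.15.

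The 42 higher genes formed a set of moderately expressed transcripts with a few abundant ones. With IκB dsRNA their levels ran from 16.7 to 1453 FPKM, with a median of 61.3 FPKM. With Rel dsRNA they ran from 0 to 617 FPKM, with a median of 13.8 FPKM. With GFP dsRNA they ran from 0 to 703 FPKM, with a median of 13.6 FPKM. The median log2 ratio of these genes on the FPKM + 1 scale was 1.58 for IκB against Rel dsRNA and 1.62 for IκB against GFP dsRNA. Between Rel and GFP dsRNA, 20 of them were higher with Rel dsRNA, 20 were lower, and 2 were listed at 0 in both. Together they held 0.690% of all FPKM with IκB dsRNA, 0.219% with Rel and 0.185% with GFP dsRNA.

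The 80 lower genes were rarer than the higher set with IκB dsRNA and more abundant than it with Rel and with GFP dsRNA, by their medians. The rule favours this order, since it chose the genes by these values. With IκB dsRNA their levels ran from 0 to 156 FPKM, with a median of 7.64 FPKM. With Rel dsRNA they ran from 11.8 to 398 FPKM, with a median of 22.7 FPKM. With GFP dsRNA they ran from 13.4 to 457 FPKM, with a median of 25.8 FPKM. The median log2 ratio was -1.32 for IκB against Rel dsRNA and -1.52 for IκB against GFP dsRNA. Rel dsRNA stood below GFP dsRNA in 49 of these genes and above it in 31. Their median log2 ratio of Rel against GFP dsRNA was -0.07, while that of all 6430 genes was -0.15. No direction between Rel and GFP dsRNA particular to these genes is read from the counts. Of the 80, 51 lay below 10 FPKM with IκB dsRNA, whereas none did with Rel or GFP dsRNA. The floor on the mean, the 2-fold limit and the 1.5-fold window together allow no such value with Rel or GFP dsRNA, so its absence is no result. The lower genes held 0.110% of all FPKM with IκB dsRNA, 0.394% with Rel and 0.371% with GFP dsRNA.

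**Figure D1:**
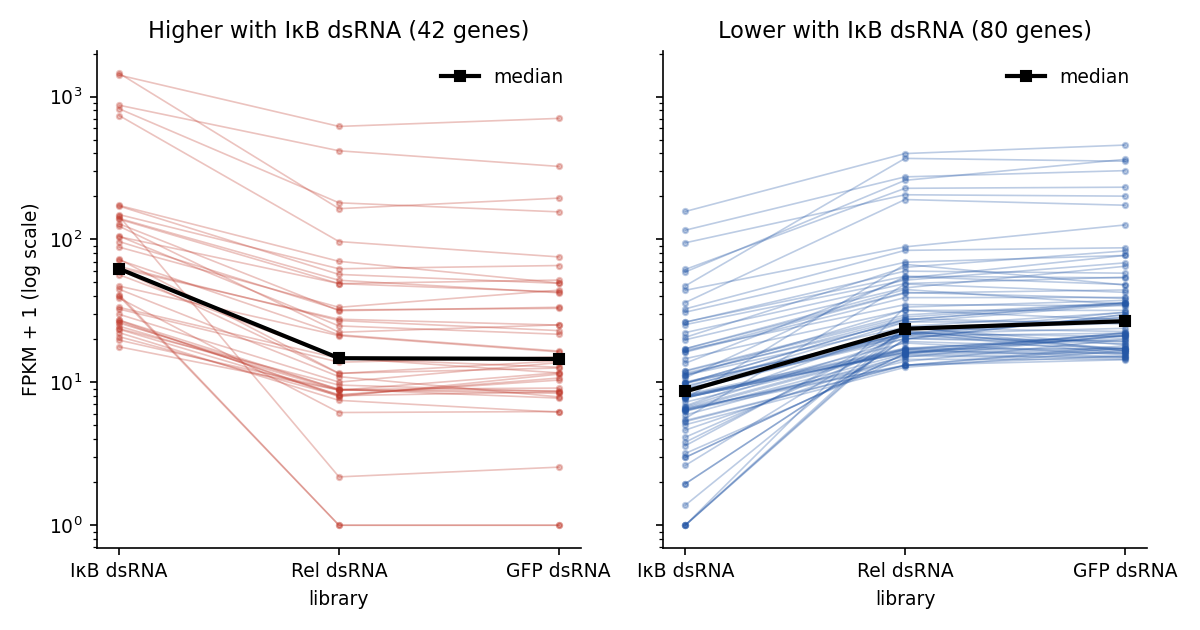
FPKM + 1 of every member in the 3 libraries on a log axis, with 1 thin line per gene and a black line for the median of the set. The higher genes (left panel, 42) have a median of 61.3 FPKM with IκB dsRNA against 13.8 with Rel and 13.6 with GFP dsRNA, and the lower genes (right panel, 80) a median of 7.64 against 22.7 and 25.8.

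The first-ranked higher gene, BGI_novel_G008733, stood at 144.4 FPKM with IκB dsRNA, against 1.18 FPKM with Rel and 1.55 FPKM with GFP dsRNA. It was barely above 1 FPKM in both other libraries and above the median of the set with IκB dsRNA, with log2 ratios of 6.06 against Rel and 5.83 against GFP dsRNA. The second, pfu_aug2.0_637.1_24258, was at 40.2 FPKM with IκB dsRNA and listed at 0 in both other libraries. The third showed the same form, at 39.1 FPKM against listed zeros. A listed 0 does not show that a transcript was absent. No fold on the plain FPKM scale is given for genes listed at 0, and their log2 ratios rest on the 1 added to every value.

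From the fourth rank on, the higher genes were detected in every library. The fourth was at 735 FPKM with IκB dsRNA, against 95.7 FPKM with Rel and 74.5 FPKM with GFP dsRNA. The fifth was at 1453 FPKM with IκB dsRNA, against 163 FPKM with Rel and 194 FPKM with GFP dsRNA. Both were thus well expressed in all 3 libraries, and the direction between Rel and GFP dsRNA differed between them. The sixth was at 37.9 FPKM with IκB dsRNA, against 5.15 FPKM with Rel and 5.25 FPKM with GFP dsRNA, and the ninth was at 820 FPKM, 179.5 FPKM and 155 FPKM in the same libraries.

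Abundance in the higher set was concentrated in 5 genes, which are the only members of that set with a mean of 200 FPKM or more. They summed to 5290 FPKM with IκB dsRNA, against 1472 FPKM with Rel and 1449 FPKM with GFP dsRNA, and made up 68.0% of the set's FPKM with IκB dsRNA. The most abundant by mean was at 1412 FPKM with IκB dsRNA, against 617 FPKM with Rel and 703 FPKM with GFP dsRNA, and it ranked near the end of the set, with a log2 ratio of 1.01 against GFP dsRNA. The third by mean was at 869 FPKM with IκB dsRNA, against 416 FPKM with Rel and 324 FPKM with GFP dsRNA. High level and large shift therefore went together in some genes, such as the fourth- and fifth-ranked, and not in others. None of the 42 belonged to the 100 most abundant genes of any library. Of the 42, 16 were among the 1000 most abundant genes with IκB dsRNA, against 4 with Rel and 4 with GFP dsRNA. A larger number with IκB dsRNA follows from the rule, which chose these genes as higher there.

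The first-ranked lower gene, pfu_aug2.0_11854.1_16461, was listed at 0 with IκB dsRNA and stood at 32.6 FPKM with Rel and 36.5 FPKM with GFP dsRNA. The second, pfu_aug2.0_469.1_30800, was listed at 0 with IκB dsRNA and stood at 23.6 FPKM with Rel and 29.8 FPKM with GFP dsRNA. In all, 4 of the 80 lower genes were listed at 0 with IκB dsRNA, and 3 more were below 1 FPKM there. Of the 6430 genes, 22 were listed at 0 with IκB dsRNA, 24 with Rel and 75 with GFP dsRNA. The fifth-ranked lower gene, the highest in rank with a value above 0, was at 0.38 FPKM with IκB dsRNA, against 23.5 FPKM with Rel and 15.7 FPKM with GFP dsRNA.

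Some lower genes with large differences were abundant. The ninth-ranked lower gene was at 46.3 FPKM with IκB dsRNA, against 368 FPKM with Rel and 352 FPKM with GFP dsRNA, which made Rel dsRNA 7.95-fold and GFP dsRNA 7.59-fold above IκB dsRNA on the plain FPKM scale. A further gene was at 58.2 FPKM with IκB dsRNA, against 258 FPKM with Rel and 363 FPKM with GFP dsRNA. Another was at 35.2 FPKM with IκB dsRNA, against 189 FPKM with Rel and 173 FPKM with GFP dsRNA. These abundant transcripts were lower with IκB dsRNA but not near 0 there. The lower gene with the highest mean was at 156 FPKM with IκB dsRNA, against 398 FPKM with Rel and 457 FPKM with GFP dsRNA.

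Most members, 25 higher and 56 lower genes, were less than 3-fold from at least 1 of the other libraries. At least 3-fold from both other libraries were 17 of the 42 higher and 24 of the 80 lower genes, and at least 4-fold were 12 and 20. Only 3 higher and 7 lower genes were at least 8-fold from both, and 3 and 4 were at least 16-fold. The 3 higher genes past 8-fold are the first 3 in rank, 2 of them listed at 0 elsewhere, and the next stood at a smaller log2 ratio of 2.93. The ratios of genes listed at 0 depend on the 1 added to every value. With 5 added instead, the log2 ratio of the second-ranked higher gene fell from 5.36 to 3.17. The lower genes ran from 5.07 to 1.00 in size, and the 4 listed at 0 with IκB dsRNA ranked first. No difference between the sets is read from the step.

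**Figure D2:**
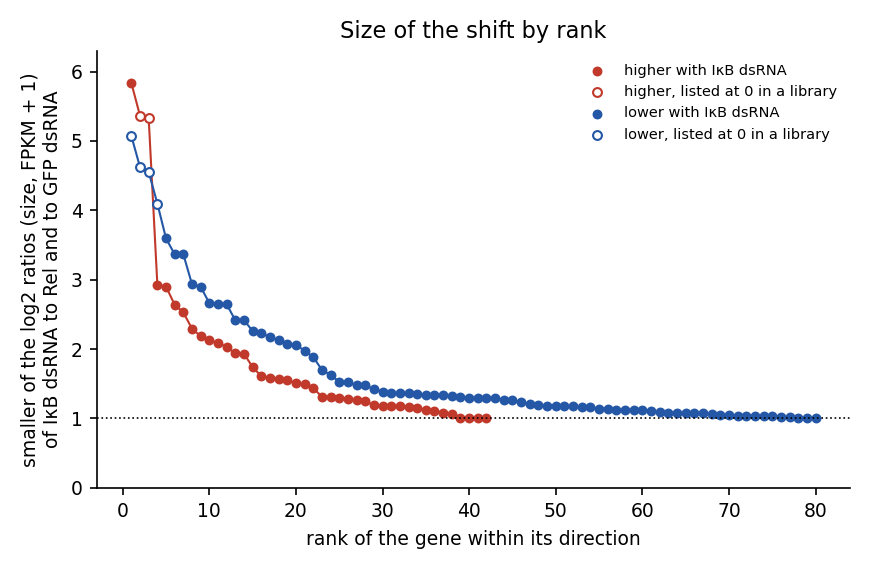
Size of the smaller log2 ratio (FPKM + 1) of IκB dsRNA to Rel and to GFP dsRNA, by rank within each direction; open circles are genes listed at 0 in at least 1 library and the dotted line is the 2-fold limit. The higher set drops from 5.32 at the third rank to 2.93 at the fourth, and the lower set runs down without a gap of that size. The heights of the open circles, the third higher gene among them, depend on the 1 added to every value.

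The genes nearest each limit were picked by the quantity that the limit uses, so they lie close in it by construction. For the 1.5-fold window this is the log2 ratio of Rel to GFP dsRNA, which leaves the ratios of IκB dsRNA free. It was -0.52 inside and 0.60 outside for the higher genes. For the lower genes it was -0.57 inside and -0.61 outside. The higher gene just inside the 2-fold limit was at 87.4 FPKM with IκB dsRNA, against 32.5 FPKM with Rel and 43.2 FPKM with GFP dsRNA, and the gene just outside was at 50.9, 21.0 and 25.0 FPKM in the same libraries. The lower gene just inside was at 7.07 FPKM with IκB dsRNA, against 15.3 FPKM with Rel and 15.2 FPKM with GFP dsRNA, and the gene just outside was at 6.49, 13.8 and 16.7 FPKM. Within 1.1-fold of this limit lay 8 higher genes inside and 18 outside, and 24 lower genes inside and 36 outside. At the 1.5-fold window, the higher gene just outside was at 143.9 FPKM with IκB dsRNA, against 10.4 FPKM with Rel and 6.49 FPKM with GFP dsRNA, a larger shift than that of most members. The gene just inside that window was at 26.2 FPKM with IκB dsRNA, against 6.95 FPKM with Rel and 10.4 FPKM with GFP dsRNA. For the lower genes, the one just inside the window was at 0.95 FPKM with IκB dsRNA, against 19.1 FPKM with Rel and 28.8 FPKM with GFP dsRNA, and the one just outside was at 10.5, 27.6 and 42.6 FPKM. At the floor on the mean, the nearest higher genes had means of 10.8 FPKM inside and 9.97 FPKM outside, and the nearest lower genes 10.3 and 9.89 FPKM.

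**Figure D3:**
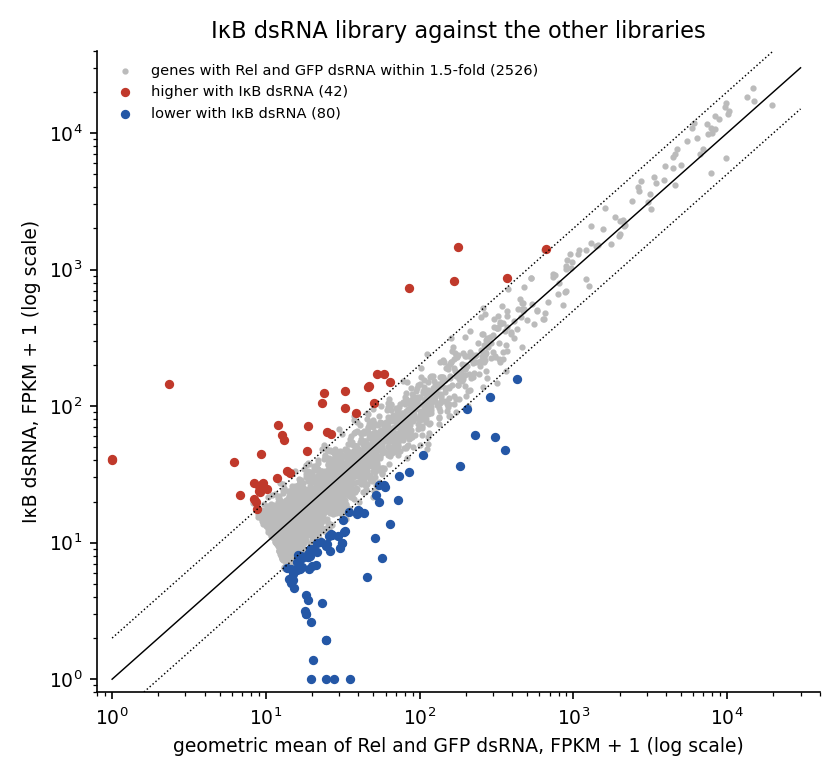
FPKM + 1 with IκB dsRNA against the geometric mean of Rel and GFP dsRNA, both on log axes, for the 2526 genes past the 10 FPKM floor whose Rel and GFP dsRNA values lie within 1.5-fold; the solid line marks equality and the dotted lines 2-fold. The 42 higher genes lie above the band, 5 of them toward the abundant end, and the 80 lower genes lie below it.

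The requirement that Rel and GFP dsRNA lie close together removed many genes that departed with IκB dsRNA. Of the 6430 genes, 168 were at least 2-fold above both other libraries with IκB dsRNA. Only 42 of these had Rel and GFP dsRNA within 1.5-fold, whereas Rel dsRNA was more than 1.5-fold above GFP dsRNA in 114 and more than 1.5-fold below it in 12. At least 2-fold below both were 162 genes, of which 80 had Rel and GFP dsRNA within 1.5-fold, 16 had Rel dsRNA above GFP dsRNA by more than that, and 66 had it below. Over all 6430 genes, Rel dsRNA was more than 1.5-fold above GFP dsRNA in 27.1%, more than 1.5-fold below it in 33.6%, and within 1.5-fold in 39.3%. A gene far above both others with IκB dsRNA thus more often had Rel dsRNA between IκB and GFP dsRNA than level with GFP dsRNA (114 against 42). For genes far below both the order was the reverse (66 against 80). These counts share the GFP dsRNA library and were not tested.

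The members were a small share of the genes that differed in either direct comparison. With IκB dsRNA, 6.19% of the 6430 genes were at least 2-fold higher than with Rel dsRNA and 18.4% at least 2-fold higher than with GFP dsRNA. The 42 higher members made up 10.6% of the first list and 3.56% of the second. At least 2-fold lower with IκB dsRNA were 7.23% against Rel dsRNA and 21.3% against GFP dsRNA, and the 80 lower members made up 17.2% and 5.85% of these lists. Of the 398 genes at least 2-fold higher with IκB than with Rel dsRNA, 168 were also at least 2-fold higher than with GFP dsRNA, 158 were within 2-fold of it, and 72 were at least 2-fold lower. The 465 genes that were lower with IκB than with Rel dsRNA divided into 162 that were lower than with GFP dsRNA as well, 162 within 2-fold of it and 141 that were higher.

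Applied to the other libraries in turn, the same rule gave 122 genes for IκB dsRNA, 153 for Rel dsRNA and 1303 for GFP dsRNA. With Rel dsRNA set apart, 75 genes were higher (1.17% of the 6430) and 78 lower (1.21%), and with GFP dsRNA set apart, 749 were higher (11.6%) and 554 lower (8.62%). The pool from which each set was drawn differed in size, since Rel and GFP dsRNA lay within 1.5-fold in 2526 genes, IκB and GFP dsRNA in 2648, and IκB and Rel dsRNA in 4327. As a share of its pool, IκB dsRNA gave 1.66% higher and 3.17% lower genes, Rel dsRNA 2.83% and 2.95%, and GFP dsRNA 17.3% and 12.8%. The IκB set was smaller than the other sets and held fewer higher than lower genes, while the Rel set was nearly even in the deposited scale. The balance of the Rel set changed direction with the scaling. It held 113 higher and 57 lower genes on the TPM scale, 59 and 91 by median ratio, and 74 and 88 by upper quartile. The lower genes outnumbered the higher ones in the IκB set under all 3 other scalings, at 103 against 38 on the TPM scale, 69 against 51 by median ratio and 68 against 52 by upper quartile. That balance turned when the floor on the mean was removed, with 714 higher and 432 lower genes. The median size of the smaller log2 ratio was 1.47 and 1.30 for higher and lower genes with IκB dsRNA set apart, 1.37 and 1.34 with Rel dsRNA, and 1.55 and 2.02 with GFP dsRNA. With 1 library per group these counts cannot be told apart from differences between the libraries as such, in their oysters or their preparation.

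**Figure D4:**
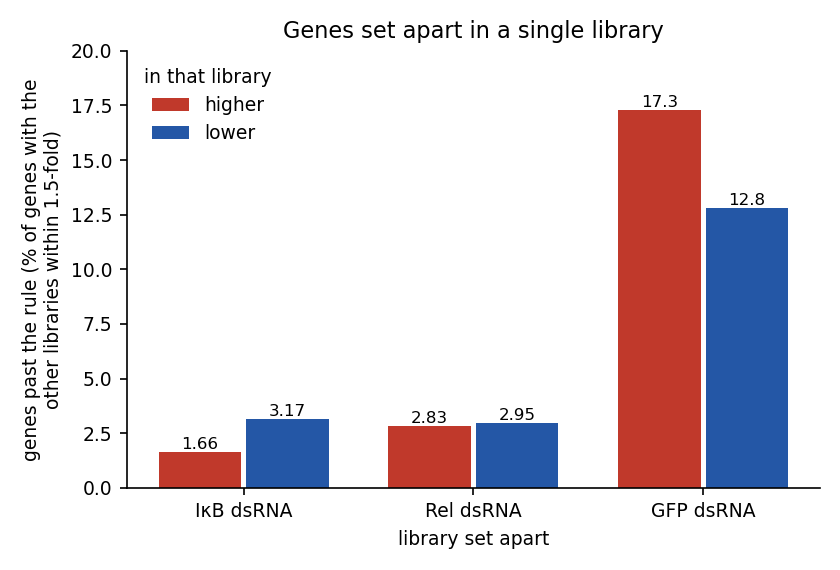
Genes meeting the rule when each library in turn is the one set apart, as a percentage of the genes whose other libraries lie within 1.5-fold. IκB dsRNA gives 1.66% higher and 3.17% lower, Rel dsRNA 2.83% and 2.95%, and GFP dsRNA 17.3% and 12.8%.

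Members of both directions were found in every bin of mean FPKM. The bins below use the mean over all 3 libraries, which includes the IκB dsRNA value that chose the members, so lower members are moved toward the low bins and higher members toward the high ones. Between means of 10 and 20 FPKM, 0.658% of 2585 genes were higher members and 1.74% lower members, which is 17 and 45 genes. From 20 to 50 FPKM the shares were 0.494% and 1.18% of 2026 genes. From 50 to 200 FPKM they were 0.805% and 0.564% of 1242 genes, and at 200 FPKM or more 0.867% and 0.693% of 577 genes. The median of this mean was 29.7 FPKM for the higher genes, 17.7 for the lower genes and 25.2 for all 6430, whereas with Rel and GFP dsRNA the lower genes had the higher medians, as given above. No order of abundance between the sets is read from the bins.

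The identifiers give properties that the rule did not use. Identifiers beginning with pfu_aug2.0 belonged to 16 of the 42 higher genes (38.1%) and 37 of the 80 lower genes (46.3%), against 45.5% of the 6430, and the rest began with BGI_novel. The pfu_aug2.0 identifiers also carry a scaffold number, and the 53 members with one fell on 51 scaffolds. The same count was not made for the other genes, so nothing about the placement of the members is read from it. More than 1 member was held by 2 scaffolds. On the first were 2 lower genes, at 6.73 and 6.80 FPKM with IκB dsRNA, 17.9 and 15.4 FPKM with Rel dsRNA, and 14.6 and 15.7 FPKM with GFP dsRNA. On the second were 2 lower genes with the same values, 8.87 FPKM with IκB dsRNA, against 26.4 FPKM with Rel and 34.8 FPKM with GFP dsRNA.

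Genes of identical values occurred in the lower set. Of the 80 lower genes, 8 shared all 3 values with another member, as 4 pairs with neighbouring identifiers, so the lower set holds 76 distinct sets of values. Among the 6430 genes 4.32% shared their values with another gene, and none of the 42 higher genes did so with another member. The pair with the largest shift was at 0.95 FPKM with IκB dsRNA, against 19.1 FPKM with Rel and 28.8 FPKM with GFP dsRNA, and a second was at 1.98, 14.9 and 20.1 FPKM. Whether the genes of a pair are separate transcripts was not tested, and their values are uncertain to that extent.

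Neighbours in identifier number were examined within 3 numbers on each side, on the same scaffold where one is given. A neighbour with a mean of at least 10 FPKM existed for 33 higher and 49 lower genes. A neighbour at least 2-fold above both other libraries with IκB dsRNA was found for 6 of the 33 higher genes (18.2%) and 3 of the 49 lower genes (6.12%), against 5.37% of the 4188 such genes in all. Among these 6 are the adjacent higher genes given below, which count each other. The first-ranked higher gene is also among them, through the neighbours described further on. No grouping of the higher genes is read from this share. A neighbour at least 2-fold below both was found for 2 of the higher genes (6.06%) and 9 of the lower genes (18.4%), against 4.94% of all, and 8 of these 9 belong to the pairs of identical values. With genes of identical values left aside, 1 lower gene (2.04%) and 3 higher genes (9.09%) had another member as neighbour, against 3.63% of all. The cases that follow hold all of these genes, as neighbours of each other. In 1 case adjacent higher genes were at 71.7 and 148 FPKM with IκB dsRNA, 10.6 and 61.4 FPKM with Rel dsRNA, and 11.6 and 64.7 FPKM with GFP dsRNA. In another, a higher gene stood at 16.7 FPKM with IκB dsRNA, against 7.83 FPKM with Rel and 7.74 FPKM with GFP dsRNA, and its lower neighbour was at 5.41, 13 and 19 FPKM. Whether identifier numbers follow the order of genes on the genome is not stated for BGI_novel identifiers.

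The first-ranked higher gene stood in a run of 8 consecutive BGI_novel identifiers whose levels changed widely between libraries, singled out here after its values were seen. Identifiers more than 5 numbers below that gene were not examined, so the lower end of the run is not known. All 8 genes differed at least 4-fold between their highest and lowest library, as did 22.8% of the 6430 genes. The run was ended before the first gene whose levels lay close together. The count of 8 therefore follows from how the run was bounded, and nothing is read from it. The gene 3 numbers below BGI_novel_G008733 was at 2988 FPKM with IκB dsRNA, against 14.4 FPKM with Rel and 4.09 FPKM with GFP dsRNA, and it is not a member because Rel and GFP dsRNA were too far apart. The gene 5 numbers below was listed at 0 with IκB dsRNA and stood at 290 FPKM with Rel and 1435 FPKM with GFP dsRNA. These genes thus peaked in different libraries although their numbers adjoin. The gene 4 numbers below was at 659 FPKM with IκB dsRNA, against 1853 FPKM with Rel and 79.6 FPKM with GFP dsRNA, and the gene directly above at 69.2, 1384 and 28.2 FPKM. Summed over the run, the levels were 4460 FPKM with IκB dsRNA, against 3803 FPKM with Rel and 1568 FPKM with GFP dsRNA. Of the sum with IκB dsRNA, 2988 FPKM came from the gene 3 numbers below BGI_novel_G008733. Genes that peak in different libraries even out in a sum, so nothing is read from these sums. The next gene in number order, past the upper end of the run, was at 14.7 FPKM with IκB dsRNA, against 14.4 FPKM with Rel and 21.4 FPKM with GFP dsRNA. Whether these genes are near-identical copies that share reads was not tested, and the value of BGI_novel_G008733 is uncertain to that extent.

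**Figure D5:**
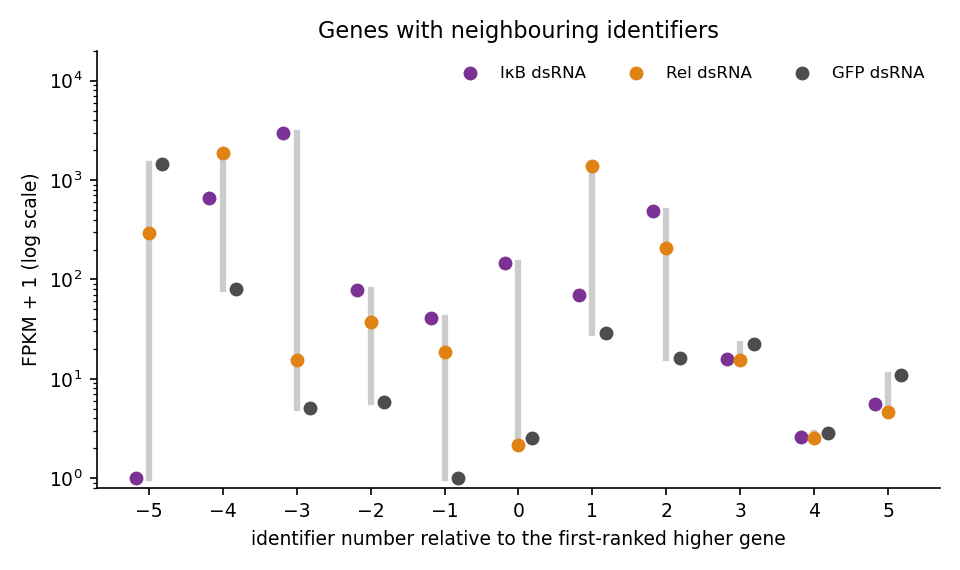
FPKM + 1 (log axis) of the genes within 5 identifier numbers of the first-ranked higher gene (position 0) with IκB, Rel and GFP dsRNA; grey bars join the lowest and highest library. From position -5 to 2 the libraries are far apart and their order changes from gene to gene, and from position 3 on they lie closer together.

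Membership depended in part on how the libraries were scaled. Under all 3 other scalings (the TPM scale, median ratio and upper quartile), 35 of the 42 higher and 51 of the 80 lower genes remained members. When pseudocounts of 0.1 and 5 were required as well, 28 higher and 34 lower genes remained. Over the 6430 genes, the median log2 ratio of IκB against Rel dsRNA shifted by -0.15 on the TPM scale, and that of IκB against GFP dsRNA shifted by 0.13 with upper-quartile scaling.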

How the data were processed

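RNA of the mantle of Pinctada fucata was sequenced in 3 libraries, 1 per dsRNA. The authors deposited 1 table of FPKM values, rounded to 2 decimals, with 33072 genes and 1 column per library; 0 columns were left unused. Per the submitters' processing notes, HISAT, Bowtie2 and RSEM were used; versions, roles, genome build and annotation: not given in the sources used here. The labels' protocols mention poly(A) selection as well as rRNA depletion without saying which applies. Fields separated by 1 or more tabs were read in header order and matched to the libraries by column name.

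The rule for members and the identifier lookups were run in Python 3.11.15 with pandas 2.3.3 and numpy 2.4.6. The rule and the depth estimate were tested on simulated data, which held whole read counts for the depth estimate. Log2 ratios use FPKM + 1, which understates the change of low genes. With 1 library per group no test was possible and no p-value was computed. FPKM keep no read number, and neither counting intervals nor detection floors could be given. Relative depth was the most frequent ratio of low values (0.3 to below 3 FPKM), searched within 1.41-fold of equal depth. The genes named are the first 2 of each direction by the smaller log2 ratio. The members and lists were chosen with earlier results of these data known. Gene lists and markers fixed by name were not applied, since the deposited table does not pair identifiers with names and annotations were not used here. The alternatives were pseudocounts of 0.1 and 5, other floors on the mean, a 3-fold limit, other windows and 3 scalings, and, added after the data were seen, genes above 0 in all libraries and identical genes counted once.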

Additional observations from a re-analysis of the deposited data

How the results depend on the processing

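The counts of members depended mostly on the floor, the fold limit and the window for the other libraries, which was also set narrower than 1.5-fold and at 2-fold. With IκB dsRNA set apart there were 99 higher and 155 lower genes at a mean of at least 5 FPKM, 25 and 35 at 20 FPKM, 714 and 432 with no floor, and 17 and 24 at 3-fold, against 42 and 80. A pseudocount of 5 left 49 lower genes and the narrower window left 46. With Rel dsRNA set apart the counts were 138 and 143 at 5 FPKM, 44 and 46 at 20 FPKM, 792 and 387 with no floor, 26 and 26 at 3-fold, 50 lower with the narrower window, 119 lower with a window of 2-fold, and 113 higher on the TPM scale. With GFP dsRNA set apart they were 473 higher and 344 lower at 20 FPKM, 2139 and 1895 with no floor, 354 and 369 at 3-fold, 921 lower at 5 FPKM and 357 lower with the narrower window. These settings change which genes can enter; for the TPM scale the cause was not tested. The other 49 of 78 counts stayed within 1.5 times, among them those of IκB dsRNA under the 3 scalings (38 to 52 higher and 68 to 103 lower). The log2 ratios of the 4 named genes kept their direction in all 40 recomputations; 16, all from the pseudocounts, moved by over 1.5-fold, with sizes from 2.52 to 8.65, and no scaling moved one by more than 0.22 (log2). No paired analysis was possible because each group has 1 library, and no replicate could be left out. Read numbers are unknown, so values near 0 have no stated precision.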
